A study of Mus musculus with 4 samples.

Results

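The genes described here encode calcineurin, its inhibitors and the transcription factors that it activates. They were taken from the table of transcript start sites by symbol: the catalytic subunits Ppp3ca and Ppp3cb, the regulatory subunit Ppp3r1, the regulators of calcineurin Rcan1 and Rcan2, the calcineurin-dependent factors Nfatc1, Nfatc2, Nfatc3 and Nfatc4, and the related factor Nfat5. Of these 10 symbols, 9 had rows in the table, with 86 of the 42207 sites and 9 of the 9838 genes. Nfatc4 had no row, and no site of any other symbol fell between 55824795 and 55833943 of chromosome 14, where it lies, so it was not detected.

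Calcineurin is a phosphatase that is switched on by calcium. It removes phosphate from the NFATc proteins, which then enter the nucleus, whereas kinases such as GSK3, CK1 and DYRK send them out again, and the Rcan proteins bind calcineurin and hold it back. In skeletal muscle the pathway is known for its part in slow-fibre gene expression, and an internal promoter of Rcan1 is known to respond to calcineurin through NFAT. Nfat5 shares the DNA-binding domain but responds to osmotic stress and does not depend on calcineurin.

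The study asked how loss of AMPKα2 alters the ends of transcripts in muscle. Total RNA came from the gastrocnemius muscle of male C57BL/6 mice about 8 weeks old, 2 with the AMPKα2-/- genotype (KO) and 2 wild type (WT), labelled as adult, and each library was made from a separate mouse. No Cre driver or tissue restriction is described for the knockout, so no cell type of the muscle serves as an unaffected control. The 5′ ends were read by WTSS-seq, a method for whole transcriptome start sites in which cDNA is extended by template switching at the 5′ end of an RNA or of a fragment of one, so that a clustered group of read starts is called an alternative start site (ASS).

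Depth was 2900279 and 2303294 reads for the KO libraries against 1300069 and 1568945 for WT, and the summed CPM of the 9 genes (reads scaled to the library total) was 960 and 579 for KO against 731 and 743 for WT. The lowest total of any ASS over the 4 libraries was 10 reads. All 8 markers of muscle fibres were tested and none was called different, while Pax7 and Myf5, markers of satellite cells, were not in the table. Prkaa2, the targeted gene, was summed over its sites to normalized counts of 149 and 183 (KO) against 153 and 186 (WT). The fold change on the log2 scale was -0.03 (SE 0.50, DESeq2 adjusted p = 0.994), and a sum that does not separate the groups cannot check the labels. The deletion removes only part of the gene, and which of its sites lie outside was not tested. The leukocyte list had 3 of its 9 genes in the table, with summed CPM of 21.7 and 23.4 for KO against 197 and 95.6 for WT, and its member Skap1, a T-cell adaptor, fell in KO (log2 fold change -5.26, SE 0.81, DESeq2 adjusted p = 5.6e-08). Cd3g, Cd4, Cd8a and Lck were not in the table. NFAT proteins are also active in leukocytes, and the part of these cells in the results that follow was not tested. In bulk muscle, fewer cells of a type and less RNA per cell cannot be told apart.

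Across each gene as a whole, no member passed the test between KO and WT. Of the 9 genes, 4 were higher and 5 lower in KO, the median log2 fold change was -0.08 (0.01 over all 4688 genes tested), and 0 reached an adjusted p under 0.1 in DESeq2 or in edgeR, with 0 at an unadjusted p under 0.05 in either. The background was 125 of 4688 genes called (2.67%). The groups did not overlap in 2 of the 9 genes, Ppp3cb and Nfatc3, against 41.4% of all genes tested. Normalized counts are read counts divided by the size factor of the library, given in the order KO replicate 1, KO replicate 2, WT replicate 1 and WT replicate 2, with SD over 2 libraries.

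**Figure D1:**
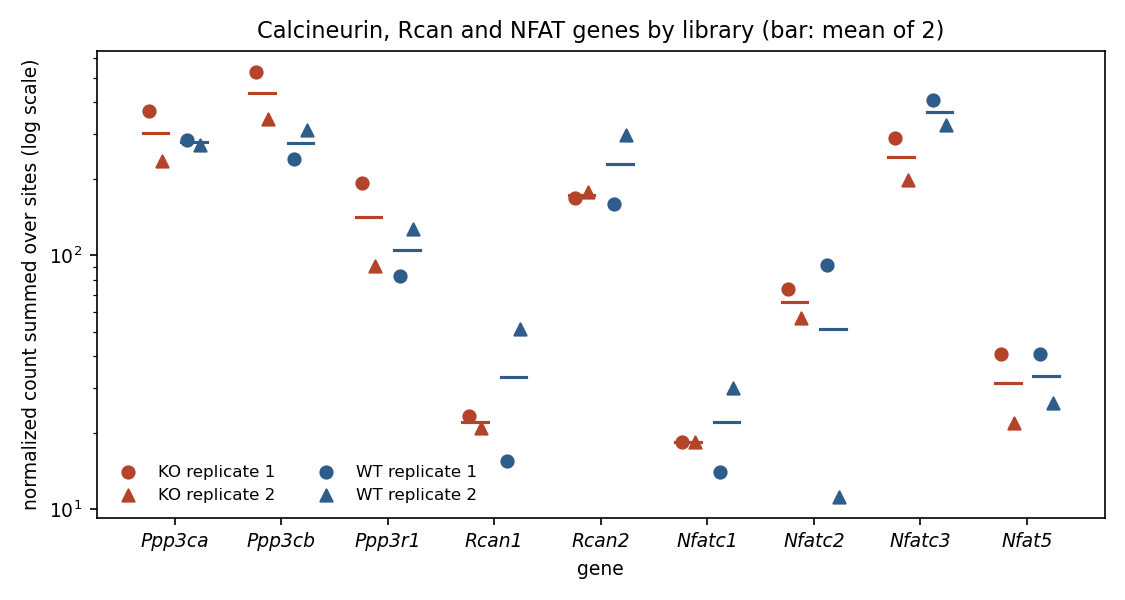
Normalized counts summed over all sites of each of the 9 detected genes (log axis), with a point for each of the 4 libraries and a bar at the mean of the 2 libraries of a group. KO lies above WT in both libraries for Ppp3cb and below it for Nfatc3, and the groups overlap in the other genes.

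Ppp3cb, the beta catalytic subunit, had normalized counts of 527, 345, 240 and 311. Both KO libraries lay above both WT libraries, but the difference between the means of 436 ± 128 (SD, n = 2) in KO and 276 ± 50.6 (SD, n = 2) in WT did not pass the test (log2 fold change 0.66, SE 0.47, DESeq2 adjusted p = 0.775). Ppp3ca, the alpha catalytic subunit, had 369, 236, 283 and 273, with the KO libraries on either side of WT (log2 fold change 0.12, SE 0.47). Ppp3r1, the calcium-binding B subunit, had 192, 90.9, 82.7 and 127, and the groups overlapped (log2 fold change 0.44, SE 0.60).

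Rcan2, an inhibitor of calcineurin that is abundant in muscle and brain, had normalized counts of 168, 177, 158 and 298. The KO libraries lay within the WT range (log2 fold change -0.40, SE 0.52, DESeq2 adjusted p = 0.947). Rcan1, its stress-inducible relative, had 23.2, 21.0, 15.4 and 51.1, again with KO inside the WT range (log2 fold change -0.59, SE 0.93).

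Among the factors, Nfatc3 had normalized counts of 288, 198, 407 and 325. Both KO libraries lay below both WT libraries, and the difference did not pass (log2 fold change -0.59, SE 0.47, DESeq2 adjusted p = 0.856). Nfatc2 had 73.9, 56.8, 91.1 and 11.2, so that the WT libraries were the highest and the lowest. Nfatc1 had 18.3, 18.4, 14.0 and 29.9, and Nfat5 had 40.9, 21.8, 40.7 and 26.2. For both genes the groups overlapped, with log2 fold changes of -0.26 (SE 1.01) for Nfatc1 and -0.08 (SE 0.85) for Nfat5.

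Levels were compared between genes as normalized count per kb of gene span. A count of 5′ ends need not grow with gene span, so the order also depends on gene length. Before division, the WT means of Ppp3ca and Ppp3cb were 278 and 276, on spans of 268 and 47.2 kb. In WT the order was Ppp3cb (5.84), Nfatc3 (5.10), Ppp3r1 (2.55), Ppp3ca (1.04), Rcan2 (0.958), Rcan1 (0.448), Nfatc2 (0.409), Nfat5 (0.388) and Nfatc1 (0.205). In the WT libraries, neighbours in this order were separate at 3 steps, from Nfatc3 to Ppp3r1, from Ppp3r1 to Ppp3ca and from Nfat5 to Nfatc1, and overlapped at the others. In KO, Ppp3cb stood highest at 9.23, and Ppp3r1 (3.45) and Nfatc3 (3.39) overlapped.

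The start sites of these genes lay mostly inside introns and near gene ends. By the class codes of the table, 52 of the 86 sites (60.5%) were intronic (i) and 32 (37.2%) exonic (c), with 1 spanning an exon edge (e) and 1 antisense to an exon (x). Over all sites with a gene the shares were 52.0% intronic and 38.6% exonic. Intronic sites held 58.7% to 65.5% of the reads of these genes in a library and 15.6% to 23.9% of the reads of all genes, where 5 sites of another class (=, a match to a whole transcript) held 36.0% to 40.7%.

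Of the 86 sites, 2 lay within 500 bp of an annotated start (2.33%), against 6.29% of the 37409 sites of all genes that could be placed. They were a Ppp3ca site at chr3:136670069-136670093, with 7, 12, 0 and 4 reads, and a Rcan1 site at chr16:92466113-92466151, 51 bp past the start, with 14, 3, 3 and 10 reads. Too few reads fell there for a test of either site. Of the 32 exonic sites, 21 lay in the last 2 kb of the gene (65.6%), against 40.8% of exonic sites of all genes, and these 21 held 83.0% to 90.8% of the exonic reads of the 9 genes per library, against 50.1% to 53.2% for all genes. Within 500 bp of an annotated start lay 0.316% to 1.20% of the reads of the 9 genes per library. For all placed sites it was 31.3% to 38.0%. The read shares pool all reads, so the most-read sites weigh most. Gene span was not matched in the comparisons with all genes.

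**Figure D2:**
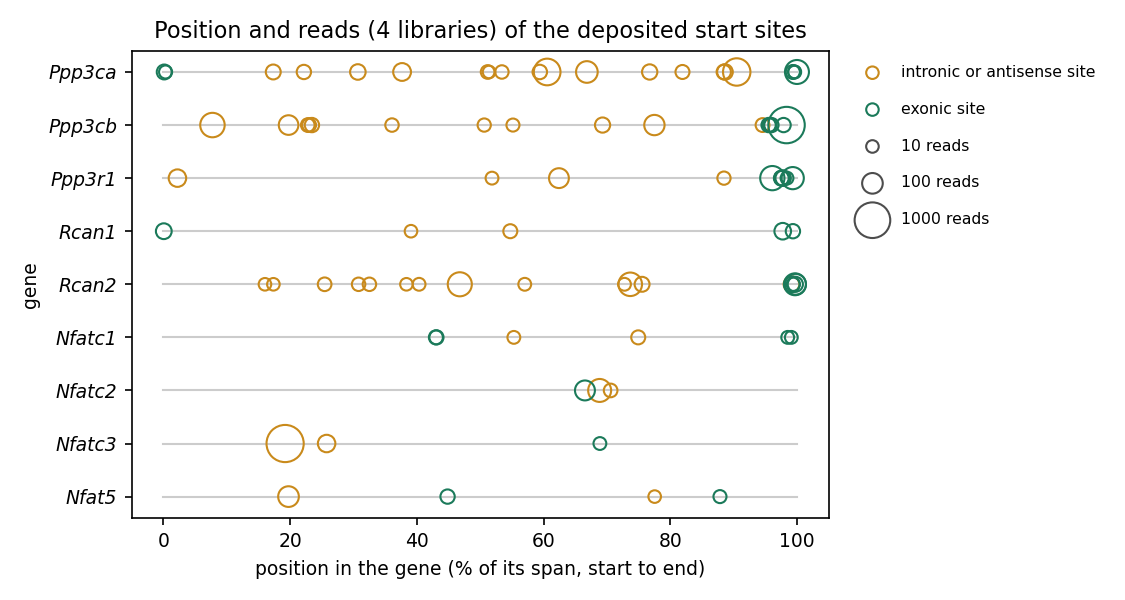
Position of the 86 sites along their genes (% of the gene span, from start to end) with the circle area growing with the reads over the 4 libraries, in orange for intronic or antisense sites and green for exonic sites. Exonic sites crowd at the right end in Ppp3ca, Ppp3cb, Ppp3r1 and Rcan2, and the largest circle of Nfatc3 is intronic.

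The genes differed in how their reads were spread. Ppp3ca had 21 sites, of which 15 were intronic, and 1.72% of the 9838 genes had more sites (the median gene had 2). Rcan2 had 18 sites, Ppp3cb 16, Ppp3r1 10, Nfatc1 6, Rcan1 5, Nfat5 4, and Nfatc2 and Nfatc3 3 each. Nfatc3 was nearly a single-site gene: an intronic site at chr8:106072589-106072601 gave 92.6% and 95.6% of its reads in KO and 97.9% and 96.9% in WT. The share of intronic reads was between 98.7% and 100% in Nfatc3 and between 25.1% and 40.0% in Ppp3cb.

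The leading site of Ppp3cb was exonic, at chr14:20500147-20500161, 788 bp from the gene end, with 605, 230, 111 and 148 reads. It held 58.2% to 70.2% of the gene's reads in the 4 libraries, with overlapping groups. In Nfat5, an intronic site at chr8:107310433-107310436 gave 61.2% and 68.0% of reads in KO and 89.7% and 81.0% in WT, on 21 to 67 reads of the gene per library. The remaining Nfat5 sites had reads of (10, 0, 0, 0), (3, 8, 1, 0) and (13, 0, 2, 4). Each reached the minimum of 10 reads through the deeper KO libraries, so nothing is read from these shares. The leading site of Nfatc2 was intronic, at chr2:168515413-168515462, with 86, 45, 23 and 5 reads. It gave 71.1% and 69.2% of the gene's reads in KO against 35.4% and 55.6% in WT, and its level did not pass the test (log2 fold change 1.38, SE 1.05, DESeq2 adjusted p = 0.909). The site of Nfatc1 with most reads, which was exonic, had only 7, 3, 1 and 7 reads and was not tested.

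Site by site, 2 differences passed the test, in Rcan2 and in Ppp3r1, and they went in opposite directions. DESeq2 tested 23 of the 86 sites, 15 intronic, 7 exonic and 1 spanning an exon edge, in 8 of the genes, and left out 63 for low counts, all 6 of Nfatc1 among them. Of the 23, 13 were higher and 10 lower in KO with a median log2 fold change of 0.42 (0.10 over all sites tested), 4 had an unadjusted p under 0.05 and 2 (8.70%) were called at an adjusted p under 0.1. The background was 357 of 11112 sites called (3.21%), and edgeR called 1 of the 22 member sites it tested. The groups did not overlap at 10 of the 23 sites, against 40.4% of all tested sites.

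**Figure D3:**
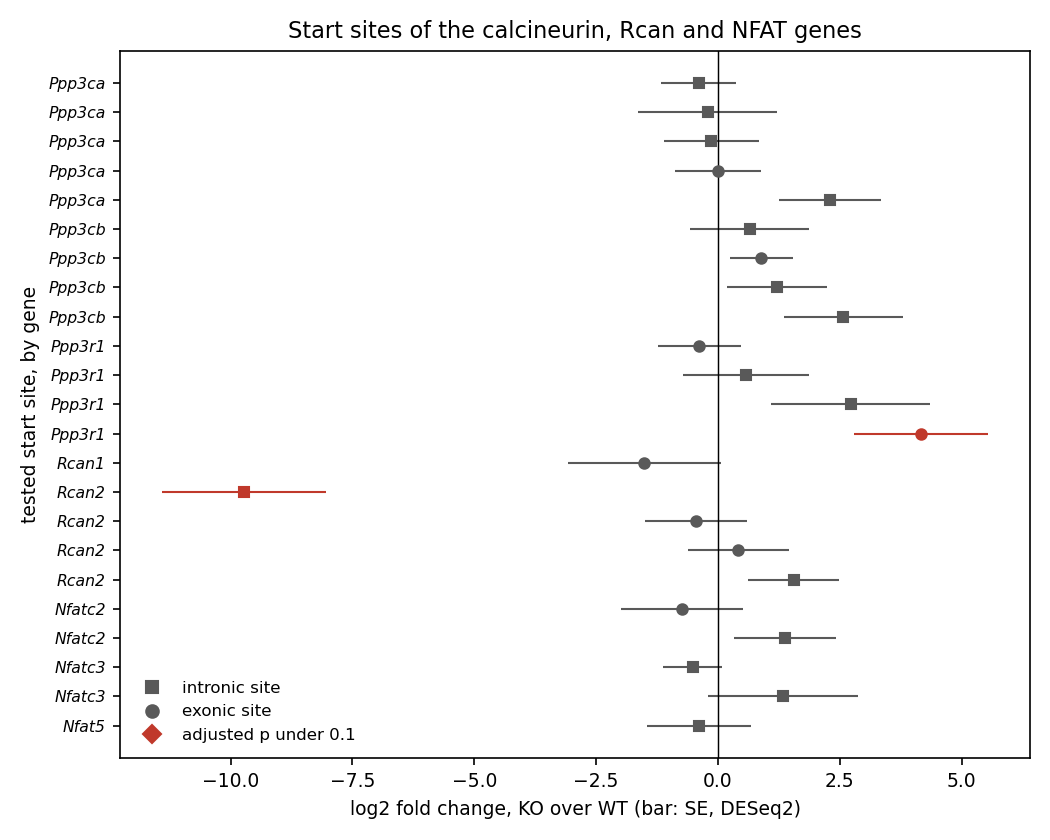
The log2 fold change of KO over WT with its SE (DESeq2) for the 23 tested sites, grouped by gene, with squares for intronic sites, circles for exonic sites (1 of them spanning an exon edge) and red for an adjusted p under 0.1. The Rcan2 site at -9.72 and the Ppp3r1 site at 4.17 are the red ones.

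The Rcan2 site was intronic, at chr17:43912710-43912752 on the plus strand, 111399 bp past the first annotated start of the gene. It had no read in either KO library, 49 in WT replicate 1 and 145 in WT replicate 2, or normalized counts of 66.5 and 167 in the WT libraries. No KO read fell on it although the KO libraries were the deeper ones, and the groups were fully separate. Its WT mean was 51.3 times a floor of 3 counts in each KO library. That ratio leaves out the spread between mice, so it does not bound the fold change. The log2 fold change was -9.72 (SE 1.69, DESeq2 adjusted p = 6.2e-06, edgeR adjusted p = 0.032).

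In WT this site was the most-read one of Rcan2. It held 43.4% of the gene's reads in WT replicate 1 (exact 95% binomial interval 34.1% to 53.0%) and 60.7% in WT replicate 2 (54.2% to 66.9%). In KO it held 0 of 275 and 0 of 203 reads, with upper bounds of 1.33% and 1.80% by the same exact interval (1.09% and 1.48% by the floor of 3 counts). Of the 86 sites, it alone had at least 20 reads in one group and 0 in both libraries of the other. Over all 42207 sites, 806 met this rule in either direction. In the direction of 20 or more WT reads and 0 KO reads, 93 (0.220%) did, against 1.16% of the 86.

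The sites of Rcan2 were used in different proportions in KO and WT. In a test of each site against the rest of its gene (diffSpliceDGE of edgeR, Simes method), Rcan2 was the only one of the 5 members tested that was called, with an adjusted p of 0.0067. The background was 29 of 2145 genes called (1.35%). Without KO replicate 1 the adjusted p was 0.183, and the call was lost. The relative log2 fold change was -9.15 for the WT-only site. It was 2.36 for an intronic site at chr17:43976807-43976821, which lies past the internal start and had 89, 58, 18 and 11 reads, with both KO libraries above both WT libraries. The level of that site on its own did not pass (log2 fold change 1.55, SE 0.93, DESeq2 adjusted p = 0.704). The exonic sites of Rcan2 near its end, at chr17:44038669-44038811 and chr17:44038871-44038943, had relative values of 1.21 and 0.37, and their normalized counts overlapped between the groups. A relative value is set against the rest of the gene, so the drop of the WT-only site by itself raises the values of the other sites.

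Since a single site changed the total, Rcan2 was also summed without it, a choice made after seeing the data. The normalized counts were then 168, 177, 89.7 and 117, with both KO libraries above both WT libraries (log2 fold change 0.74, SE 0.52, DESeq2 adjusted p = 0.779). The fold change thus turned from negative to positive, a direction that leaving out the site high in WT helps to set, and neither value passed the test.

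The other Rcan2 sites upstream of the internal start, at 43952999, had few reads. Without the called site, these 8 sites, all intronic, summed to 57 and 32 KO reads against 4 and 2 WT reads, or 20.7% and 15.8% of all Rcan2 reads for KO against 3.54% and 0.837% for WT. Normalized for depth the sums were 37.4, 27.6, 5.43 and 2.31. At 5 of the 8 sites both WT libraries had 0 reads, and 11.8% of all sites in the table had 0 in both, against 2.29% with 0 in both KO libraries. The 9 sites past the internal start had normalized sums of 143, 148, 81.4 and 106. A site needs 10 reads in total to be listed, and these 8 reached that minimum mostly through the deeper KO libraries, so their KO excess is in part set by the minimum and nothing is read from it. No test was made on either side of the internal start, since the split was drawn after the values were seen.

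**Figure D4:**
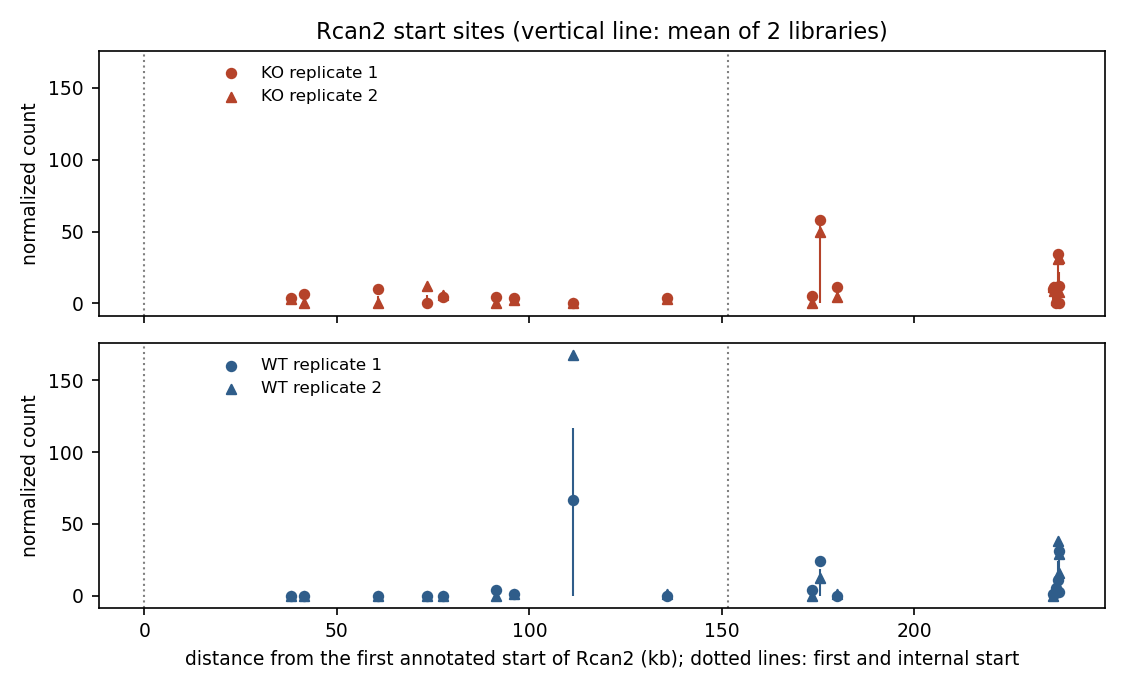
Normalized counts of the 18 Rcan2 sites by distance from the first annotated start (kb), for KO above and WT below on the same scale, with a point per library and a vertical line at the mean. The tallest WT site, 111399 bp from the start and before the dotted line of the internal start, is at 0 in both KO libraries, whereas small KO points stand before it.

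Rcan1 has an internal start too, and its reads were few. The 3 sites upstream of that start had 22, 20, 3 and 12 reads, and the 2 sites past it had 16, 4, 8 and 29. The upstream sites thus held 57.9% and 83.3% of the gene's reads in KO and 27.3% and 29.3% in WT, with no overlap. On 11 to 41 reads per library these shares were not tested, and the 2 intronic sites upstream had 0 and 1 WT reads, so that they too were listed through the KO libraries. The leading site, which spans an exon edge at chr16:92393535-92393646, had 10, 4, 4 and 20 reads, and its level did not pass the test (log2 fold change -1.51, SE 1.57). The intronic site with 6, 3, 0 and 1 reads overlaps the lncRNA Gm41498, whose strand is not given in the gene table.

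The sequences before these starts are given because both genes carry an internal promoter and because GGAAA is the core of the NFAT recognition sequence. They are the 250 bases before the start from RefSeq, build GRCm38.p6, 5′ to 3′ on the strand of the gene, with GGAAA and its reverse complement TTTCC in capitals. The windows are those of the Rcan1 first start (chr16:92466170-92466419, minus strand), the Rcan1 internal start (chr16:92400079-92400328, minus strand) and the Rcan2 internal start (chr17:43952749-43952998, plus strand).
Rcan1 first start: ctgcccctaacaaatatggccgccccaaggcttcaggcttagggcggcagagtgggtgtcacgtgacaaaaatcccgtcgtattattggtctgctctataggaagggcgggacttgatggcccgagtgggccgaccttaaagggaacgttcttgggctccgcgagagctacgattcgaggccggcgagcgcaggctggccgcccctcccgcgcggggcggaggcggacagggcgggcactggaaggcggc
Rcan1 internal start: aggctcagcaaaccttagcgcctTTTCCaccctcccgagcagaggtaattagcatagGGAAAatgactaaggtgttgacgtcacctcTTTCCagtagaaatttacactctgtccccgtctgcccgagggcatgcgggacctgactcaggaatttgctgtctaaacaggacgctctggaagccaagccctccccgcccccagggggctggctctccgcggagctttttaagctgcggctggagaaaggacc
Rcan2 internal start: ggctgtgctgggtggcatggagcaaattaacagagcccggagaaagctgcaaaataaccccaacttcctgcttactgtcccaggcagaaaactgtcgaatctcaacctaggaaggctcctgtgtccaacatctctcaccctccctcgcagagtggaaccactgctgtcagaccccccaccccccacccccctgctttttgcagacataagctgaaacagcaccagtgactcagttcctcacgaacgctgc

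The window before the Rcan1 internal start held 3 matches, 1 of GGAAA and 2 of TTTCC, and as many or more were found in 6.39% of the 32851 windows of all genes. The windows before the Rcan1 first start and the Rcan2 internal start held 0, and 55.6% of all windows held at least 1. Of the 2 windows at the 5′ end of Rcan2, the one before position 43801352 held 2 matches and the one before 43801851 held 0. A match describes letters only, and no ASS of either gene fell within 500 bp of an internal start. RefSeq windows were at hand for 8 of the 10 genes, Ppp3ca and Nfatc1 being the ones without.

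The Ppp3r1 site that rose in KO was exonic, at chr11:17200043-17200095, 285 bp from the end of the gene. It had 120, 13, 2 and 2 reads, and normalized counts of 78.8, 11.2, 2.71 and 2.31. Both KO libraries were above both WT libraries, but KO replicate 1 carried 120 of the 133 KO reads. The ratio of the summed reads, scaled for depth, was 19.9 (exact 95% counting interval 7.58 to 74.0). That interval covers the counting error of the pooled reads and not the spread between mice, so it does not bound the KO to WT ratio. By DESeq2 the change on the log2 scale was 4.17 (SE 1.38) at an adjusted p of 0.0865, just under the threshold, and edgeR gave an adjusted p of 0.199.

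The share of the Ppp3r1 reads on this site was 38.1% and 12.5% for KO against 3.39% and 1.96% for WT. The usage of Ppp3r1 sites had an unadjusted p of 0.031 and an adjusted p of 0.450 in diffSpliceDGE, so that it was not called. With a library left out the site was called in no case: the log2 fold change was 4.96 without KO replicate 2, 4.28 without WT replicate 1 and 3.99 without WT replicate 2, and 2.19 without KO replicate 1, where the site was too low to be tested. The main exonic site of the gene, at chr11:17198702-17198800, had 65, 47, 27 and 62 reads and overlapping groups. Without the called site the sum of Ppp3r1 was 119, 79.5, 79.9 and 125, and the groups overlapped (log2 fold change -0.04, SE 0.59).

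Among the sites that were not called, the smallest adjusted p was 0.368, at the most-read site of Ppp3ca. This intronic site, chr3:136912183-136912184, had 272, 32, 26 and 6 reads and normalized counts of 178.5, 27.6, 35.3 and 6.93. KO replicate 1 stood far above the other 3 libraries, and KO replicate 2 lay between the WT libraries (log2 fold change 2.30, SE 1.04). Without WT replicate 1 it was called (log2 fold change 3.89, DESeq2 adjusted p = 0.0929). An intronic Ppp3cb site at chr14:20509992-20509999, singled out for its unadjusted p of 0.035, had 35, 50, 3 and 6 reads (log2 fold change 2.58, SE 1.22, DESeq2 adjusted p = 0.426). Its KO libraries were both above its WT libraries. The usage test gave an adjusted p of 1.00 for Ppp3ca, Ppp3cb and Nfatc2.

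Other genes of the pathway, in 5 lists of 55 genes, held no gene that passed the test. Of these, 42 were in the table and 31 were tested, with 0 called by DESeq2 or edgeR, 1 (DESeq2) and 3 (edgeR) at an unadjusted p under 0.05, 22 higher in KO and a median log2 fold change of 0.41 (0.01 over all genes). The list of calcineurin subunits and partners had 9 of 16 genes tested, 4 of them higher in KO. Of the genes with its smallest adjusted p-values, Akap5, which anchors calcineurin, had normalized counts of 47.0, 41.1, 19.6 and 8.72 (log2 fold change 1.64, SE 0.90, DESeq2 adjusted p = 0.588), and Akap6, a scaffold of the nuclear envelope, had 247, 243, 167 and 183 (log2 fold change 0.49, SE 0.47). In both genes the KO libraries lay above the WT libraries, and the groups did not overlap in 41.4% of all genes tested. Rcan3 and the testis-type subunit Ppp3r2 were not in the table, and the subunit Ppp3cc had 5, 0, 5 and 0 reads.

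Of the NFAT kinases and regulators, 6 of 14 were tested and 5 of them were higher in KO. Csnk1a1, which encodes the CK1 kinase that phosphorylates NFAT, had normalized counts of 161, 280.5, 102 and 71.0 (log2 fold change 1.35, SE 0.55, DESeq2 adjusted p = 0.273), the smallest adjusted p of all 5 lists. The DYRK-family kinase Dyrk1b had 163, 121, 92.6 and 66.0 (log2 fold change 0.85, SE 0.56) and Dyrk2 had 23.8, 51.6, 86.9 and 73.5 (log2 fold change -1.10, SE 0.70). KO and WT were separate in each of the 3, with Dyrk2 the lower in KO. The 3 were picked for small adjusted p-values, and 41.4% of all genes tested had separate groups. Dyrk1a, Gsk3a, Mapk9, Mapk14 and Nron were not in the table.

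Slow-fibre genes, which are linked to calcineurin signalling, had 7 of 9 genes tested, 6 of them higher in KO, and a median log2 fold change of 0.55. Of all 4688 genes tested, 2368 were higher in KO. The summed CPM of the list was 568 and 633 for KO against 235 and 518 for WT, with WT replicate 1 the lowest library. Tnnt1, the slow troponin T, had 65.4, 94.4, 7.01 and 46.1 (log2 fold change 1.58, SE 0.84, DESeq2 adjusted p = 0.557), and Tnnc1, slow troponin C, had 20.2, 32.3, 7.01 and 12.5. In both, KO lay above WT and neither was called, with separate groups in 41.4% of all genes tested. Myh7, slow myosin, had 574, 806, 217 and 615, so that the groups overlapped (log2 fold change 0.73, SE 0.53). Of the other substrates and cofactors, 7 of 10 were tested and 5 were higher in KO, with the smallest adjusted p-values in the CREB coactivator Crtc3 (log2 fold change 0.92, SE 0.81), the class II deacetylase Hdac4 (0.64, SE 0.59) and the muscle transcription factor Mef2c (0.27, SE 0.54). Of the genes linked to Nfat5, 2 of 6 were tested: Slc6a6, the taurine transporter, had 50.1, 47.2, 22.4 and 12.5 (log2 fold change 1.48, SE 0.84, DESeq2 adjusted p = 0.626), and Slc38a2 had overlapping groups (log2 fold change 0.44, SE 0.77).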

How the data were processed

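WTSS-seq counts of gastrocnemius RNA from 2 KO and 2 WT mice were used, grouped by their labels. What the authors deposited was a table of raw read counts per clustered start site, with symbol and Cuffcompare class code, on GRCm38.p5. The aligner and clustering of these 5′ libraries were not given in the sources used here. No molecular identifiers were described, so PCR copies were counted as separate reads, and intervals and floors cover counting error only.

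Sites, and gene sums over all sites of a symbol, were tested with DESeq2 1.42.0 (Wald test, default size factors and independent filtering, Benjamini-Hochberg adjusted p under 0.1 over the whole table) in R 4.3.3. Site usage was tested with diffSpliceDGE of edgeR 4.0.16 after filterByExpr. Alternatives were edgeR quasi-likelihood, other size factors and filters, a replicate block, and each library left out. The members, gene lists and tests were chosen with earlier results of these data known. Genes given with fold changes were the members, the targeted gene, and list genes that were called or had the 3 smallest adjusted p-values of their list, except for a list gene that is not reported here. Sites named were those called, those with most reads per member, those with at least 20 reads in a group and 0 in the other, and tested sites within 500 bp of an annotated start. Others are said to be singled out after seeing the values, as were the other Rcan1, Rcan2 and Nfat5 sites shown and the 2 untested sites near annotated starts. The tests were also run on simulated data with known changes and a common spread for all rows, and those results are not given here. Gene spans and upstream sequences came from RefSeq, GRCm38.p6. Replicate counts differed beyond counting noise (chi-square per degree of freedom 10.5 in KO and 6.46 in WT). With 2 libraries per group no exact permutation p can be under 0.333.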

Additional observations from a re-analysis of the deposited data

How the results depend on the processing

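The count of 2 called member sites became 1 with edgeR, poscounts size factors or library totals as size factors. It was also 1 without independent filtering or with an adjusted p under 0.05. With TMM size factors or a filter of 10 reads in 2 libraries it stayed at 2, the Rcan2 and Ppp3r1 sites. Where 1 call remained it was the Rcan2 site, with log2 fold changes of -10.24 to -8.96 with a library left out. Same-numbered libraries were weakly correlated in their deviation from the group mean (0.070 over sites and 0.066 over genes). This does not settle whether the mice were paired. With the replicate number as a block, 0 member sites were called by DESeq2 or edgeR (Rcan2 site adjusted p 0.341 and 0.118), 0 member genes and 0 pathway genes were called, and 1 gene was called for usage, Rcan2 with an adjusted p of 0.0588. Calls for usage ranged from 0 to 1 with a library left out, with adjusted p-values for Rcan2 of 0.0078 to 0.183. No alternative gave a called member gene or pathway gene. Uncalled gene values changed sign as follows. On exonic sites alone the log2 fold change was 0.10 for Rcan2, -0.71 for Nfatc2 and 1.15 for Nfat5, and on intronic sites alone -0.11 for Ppp3ca, 2.65 for Rcan1 and 0.34 for Nfatc1. Without the called sites it was 0.74 for Rcan2 and -0.041 for Ppp3r1. With a library left out it ranged from -0.23 to 0.42 for Ppp3ca, -0.20 to 0.88 for Ppp3r1, -1.21 to 0.49 for Rcan1, -0.78 to 0.094 for Rcan2, -0.70 to 0.36 for Nfatc1, -0.51 to 2.55 for Nfatc2 and -0.60 to 0.31 for Nfat5, and, for the leading sites, from -0.78 to 0.13 in Ppp3r1 and -0.87 to 0.085 in Nfat5. Ppp3cb and Nfatc3 kept their sign throughout. The causes were not tested. Poscounts and library totals moved the median of all sites by -0.10 and -0.12. SEs of 0.47 to 1.01 on the log2 scale limit what the gene sums can show.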
